A study of Homo sapiens with 12 samples.

Results

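The LINC-named long intergenic RNAs, the genes whose symbol starts with LINC and carries no -AS, numbered 78 of the 3090 genes listed in the 3 tables of this series and took 79 rows, since LINC-PINT was listed in 2 tables. The table of MCF-10A held 74 of them among 2680 genes, that of MDA-MB-231 held 3 among 381 and that of LM2 held 2 among 97. The libraries came from MCF-10A, a non-tumorigenic breast epithelial line that the study's methods describe as tagged for PCNA, from MDA-MB-231, a breast cancer line, and from LM2, a metastatic derivative of MDA-MB-231. In each line, cells collected right after they were driven by hydrostatic pressure through channels 5 µm wide, 5 µm high and 150 µm long (constriction) were set against cells of the same line that had not passed a channel (control), with 2 libraries per group and 12 in all. Poly(A)-selected RNA was sequenced, and each table listed only genes with an unadjusted p-value under 0.05 in the study's own comparison of the same libraries. The directions and tests given here therefore describe these genes and are not independent evidence of a change.

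Long intergenic noncoding RNAs are transcribed by RNA polymerase II, usually capped, spliced and polyadenylated, and carry no long open reading frame. Most are made at low levels and in few cell types, and many stay in the nucleus, where some act on chromatin or on the transcription of neighbouring genes. A LINC symbol is a name for a long noncoding RNA and not a statement of function, so that the members of this group share a naming rule and not a pathway.

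Total reads per library, estimated from the counts, FPKM and lengths of listed genes, ran from 29978695 to 53584754. A count of 0 was taken to allow up to 3 reads. That is 3.62 and 3.11 normalised counts in MCF-10A constriction replicates 1 and 2. MCF-10A constriction replicate 1 stood apart: all 147 listed genes with a mean above that of the controls had more normalised counts there than in constriction replicate 2, and 68 of them (46.3%) had no read in constriction replicate 2. The study's sample list gives far less RNA for the constriction samples than for the controls of both cancer lines, which cannot be told apart from transit there, and amounts that varied widely between the MCF-10A samples, with more in constriction replicate 2 than in its control. In bulk libraries a lower level per cell and fewer cells with the RNA cannot be told apart either. Of 34 markers of epithelial, mesenchymal, blood, endothelial and fibroblast cells, 4 were listed in MCF-10A and none in the other lines. The epithelial marker CLDN4 had 2589 and 2961 reads in the MCF-10A controls and 819 and 427 after transit, while KRT19, PECAM1 and PDGFRB had 5 to 71 reads in the controls and 0 after transit. The markers outside the tables could not be checked here, and the part that other cells play in the LINC values was not tested.

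In MCF-10A, most listed LINC RNAs were read in control cells and not read at all after transit. The mean normalised count, the read count divided by a size factor for the library, was lower after transit for 65 of 74 LINC genes (87.8%), beside 94.5% of all genes in the table. It was higher for 9 of 74 (12.2%), beside 5.49%. No read was found in either constriction library for 63 of the 74 (85.1%), beside 89.6% of the table. All 65 lower genes had both constriction libraries below both controls (87.8%, beside 94.5% of the table). These shares were near those of the table, and their differences were not tested. Of the 9 higher genes, 5 had reads in constriction replicate 1 and none in constriction replicate 2.

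The summed normalised count of the 65 lower genes was 1781 and 1188 in the controls and 0 and 6.21 after transit. EdgeR's quasi-likelihood test was fitted to the listed genes, with Benjamini-Hochberg adjustment over the 19236 genes that the study adjusted over. By this test 64 of the 74 passed an adjusted p of 0.05, all of them lower (86.5%), beside 91.3% of the table called lower. The fit took its variances only from genes already selected for this contrast. Its adjusted p can therefore be smaller than in a fit over all genes. With the replicate number as a block, 52 of 74 remained called (70.3%), beside 74.2% of the table, and these 52 were all among the 64. The adjusted p of the 64 ran from 0.00469 to 0.0213 in edgeR, and 42 genes shared the lowest value. No LINC gene was called higher, beside 0.149% of the table. With 1 library left out, the group it came from is a single library, which the fit assumes to vary like the other group. The means of all 64 stayed lower with any 1 library left out. For the 63 genes with 0 reads in both constriction libraries this was fixed in advance. With a pseudocount of 1 the median log2 fold change was -4.18, and -4.22 to -3.77 with 1 library left out. For genes at 0 these sizes follow from the pseudocount and the control level. Without control replicate 1, 48 of the 64 moved by under 1, and the highest value was -0.84. Of the 64 calls, edgeR kept few or none, whichever library was left out. Without constriction replicate 2 it called 3 other members, LINC01837, LINC01426 and LINC00550, all of them higher.

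**Figure D1:**
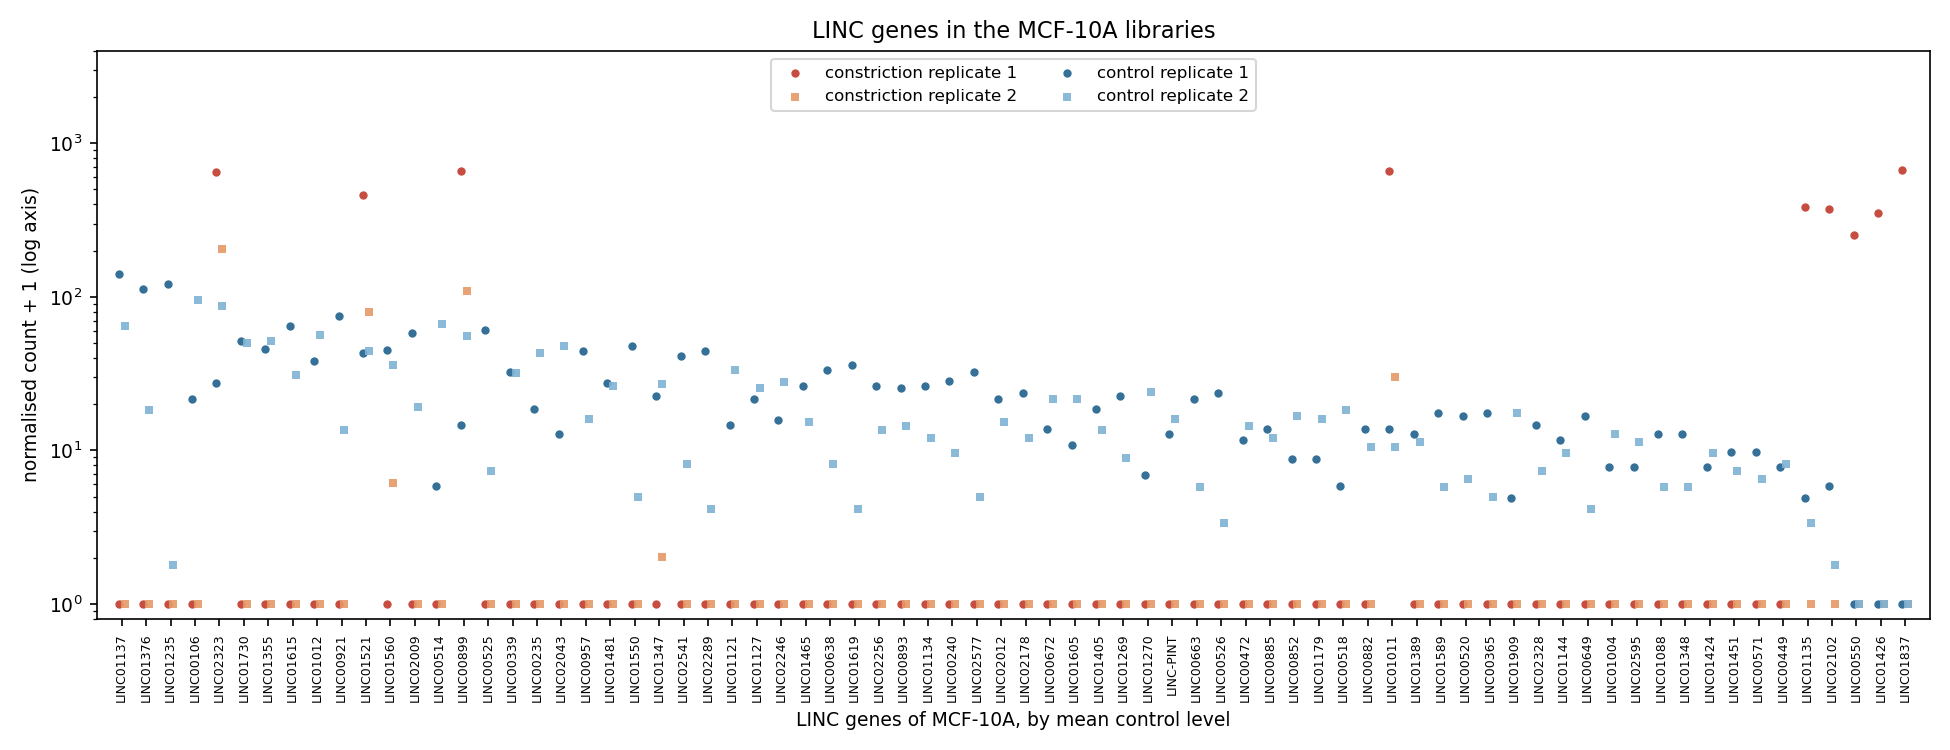
Normalised count plus 1 (log axis) of the 74 LINC genes of the MCF-10A table in each of the 4 libraries, ordered by mean control level; each point is 1 library. The constriction points of 63 genes lie at 1, which is 0 reads, and the constriction replicate 1 points of 9 genes stand for 252 to 673 normalised counts.

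The lower genes were low in control cells to begin with. The median of the mean control level over the 74 genes was 17.1 normalised counts, beside 16.6 over the whole table, and the median control level per length was 0.214 FPKM, beside 0.251. Only 5 of the 74 reached 1 FPKM in control cells, and the highest was 2.66 FPKM. For the 63 genes without a read after transit a fold change has no defined size, so it was bounded by setting each constriction library to 3 reads. On that bound the levels were at least 2.08-fold lower for the least read gene, at least 5.17-fold lower at the median and at least 30.2-fold lower for the most read, and 11 of the 63 were at least 10-fold lower. The 10 lower genes with a control level under 10 normalised counts had bounds of at most 2.89-fold. Control libraries differed from each other as well: 12 of the 74 genes were over 5-fold apart between the 2 controls and 30 were within 2-fold, with 45 higher in control 1 and 26 higher in control 2.

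LINC01137 (ENSG00000233621), annotated as antisense at chr1:37454879-37474411 on the minus strand of GRCh38, was the LINC RNA of the MCF-10A table with the highest mean normalised count in the controls. It had 143 and 80 reads in the controls, or 140 and 63.2 normalised counts, and 0 in both constriction libraries. The bound was a level at least 30.2-fold lower, with an adjusted p of 0.0213 in edgeR, 0.875 with the replicate block and 0.000674 to 1 over the alternatives. Its start lies 141 bases from that of ZC3H12A, which encodes an RNase that degrades inflammatory mRNAs, on the opposite strand.

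A further 4 members had at least 38 reads in each control and 0 after transit. LINC01730 (ENSG00000275491, chr20:3808357-3812434, plus strand) had 52 and 62 control reads, none after transit, and a level at least 14.9-fold lower. LINC01355 (ENSG00000261326, chr1:23281308-23286752, minus strand), a single-exon transcript, had 46 and 64 reads and none after transit, a difference of at least 14.2-fold. LINC01012 (ENSG00000281706, chr6:27694035-27710222, plus strand), which lies among the histone genes of chromosome 6, had 38 and 70 reads and none after transit, a difference of at least 13.8-fold. These 3 and LINC01615, which had 65 and 38 control reads and none after transit and was at least 13.9-fold lower, shared an adjusted p of 0.00469 in edgeR. With the replicate block it was 0.112 to 0.125 for these 4, so that none of them kept its call, and over all alternatives it ran from 0.000626 to 0.706.

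In other genes a single control library carried most of the reads. LINC01376, in which the start lies 10586 bases from that of OSR1, had 113 and 22 control reads and a bound of 19-fold. LINC01235 (ENSG00000270547, chr9:13406380-13433053, minus strand) had 122 reads in control 1 and 1 in control 2, the widest gap of the 74 genes between controls, and its bound of 17.9-fold rests on control 1. Control 2 alone also leaves no bound for LINC02289, LINC01619, LINC00526 and LINC00649, which are named here for that. LINC00106, in the pseudoautosomal region of the X chromosome, had 21 and 119 control reads and a bound of 17.0-fold. LINC00921, which starts 57 bases from ZNF263 on the same strand, had 76 and 16 control reads and a bound of 12.9-fold. All 4 had 0 reads in both constriction libraries, and their adjusted p in edgeR ran from 0.00469 for LINC00106 to 0.0125 for LINC01235. Over the alternatives it ran from 0.000653 to 1 for the 4, and none kept its call with the replicate block. LINC01235 also lost its call in DESeq2 (adjusted p of 0.462), and without control 1 its log2 fold change went from -5.93 to -0.84. At the other end, LINC00339 (ENSG00000218510, chr1:22024558-22031223, plus strand) had the closest controls, with 32 and 39 reads or 31.3 and 30.8 normalised counts, and none after transit, which is at least 9.24-fold lower. It kept its call with the block, at an adjusted p of 0.0242 in edgeR (0.000653 to 0.457 over the alternatives), and 44.4% of its exonic bases are shared with other annotated genes. Among the 9 lower genes with a control level of at least 40 normalised counts, all 9 were called in edgeR and none with the replicate block. Of the 40 below 20 normalised counts all were called in both fits. They include 10 genes with 4 to 16 reads in each control, whose bounds were at most 2.89-fold. With edgeR's newer dispersion estimate 30 of the 74 members were called, and by limma with a pseudocount of 10 none was.

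Only 2 of the 65 lower genes had any read after transit. LINC01560 (ENSG00000196741, chrX:47483571-47484823, plus strand), which starts 625 bases from ZNF41 on the opposite strand, counted 0 and 5 reads after transit against 45 and 44 in the controls. Its log2 fold change was -3.49 with a standard error of 1.32, and it was the one lower gene not called, at an adjusted p of 0.0887 in edgeR (0.0124 to 1 over the alternatives). DESeq2 called it, at an adjusted p of 0.0167. LINC01347, chosen for mention after its values were seen and annotated as a transcribed pseudogene, counted 0 and 1 reads after transit against 22 and 33 in the controls.

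Of 40 LINC RNAs on a list of those with published roles, 7 were in the MCF-10A table, 6 of them lower and 1 (LINC00899) higher. That is 17.5% of the list, beside 13.9% of all genes that the study adjusted over in MCF-10A, and 94.5% of the genes in this table were lower. LINC00472, which has been linked to a better outcome in breast cancer, had 11 and 17 control reads and a bound of 3.60-fold lower. LINC00520 had 16 and 7 control reads and was at least 3.15-fold lower. LINC00518, a marker used in the diagnosis of melanoma, had 5 and 22 control reads and was at least 3.31-fold lower. LINC01605 had 10 and 26 control reads, with a bound of 4.51-fold lower. All 4, like LINC01355 and LINC-PINT, had no read after transit. For LINC00472, LINC00520, LINC00518 and LINC01605 the adjusted p in edgeR was 0.00469, and 0.00384 to 0.0104 with the replicate block. Over the alternatives it ran from 0.000653 to 1 for these 4.

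The promoters of LINC01730 and LINC01615 are shown because these 2 of the most read lower genes differ in the promoter motifs searched for. The windows, from RefSeq on GRCh38.p14, run from 250 bases before to 50 after the start (chr20:3808244-3808543, plus strand, and chr6:169162940-169163239, minus strand). Both strands were searched for 5 motifs, and capitals mark the matches. The TATA box was searched for as TATAAA. For the GC box the letters were GGGCGG. The motif named CCAAT was taken as spelled. For AP-1 sites the search used TGANTCA, with N for any base. The p53 half-site was the last of these, and it overlaps none of the other motifs in the windows printed here. LINC01615 holds 3 kinds of motif, among them AP-1 sites, and LINC01730 holds none.
LINC01730: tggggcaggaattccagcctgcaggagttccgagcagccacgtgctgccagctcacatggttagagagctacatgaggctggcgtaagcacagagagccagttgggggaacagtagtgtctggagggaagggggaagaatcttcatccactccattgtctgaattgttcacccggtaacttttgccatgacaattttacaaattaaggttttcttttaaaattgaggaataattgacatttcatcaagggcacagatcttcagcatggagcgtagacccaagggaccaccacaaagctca
LINC01615: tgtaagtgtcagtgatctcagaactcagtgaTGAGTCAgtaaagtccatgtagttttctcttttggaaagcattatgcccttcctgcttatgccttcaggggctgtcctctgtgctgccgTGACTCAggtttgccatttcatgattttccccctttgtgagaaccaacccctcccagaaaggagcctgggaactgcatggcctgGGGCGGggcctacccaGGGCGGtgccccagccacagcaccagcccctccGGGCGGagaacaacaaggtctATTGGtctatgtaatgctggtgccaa

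A RefSeq promoter was found for 47 of the 78 genes, and 41 lay within 1 kb of the start that the tables give. Among the 34 promoters of genes lower in MCF-10A, 17.6% held an AP-1 match, beside 7.71% of all 35116 RefSeq promoters of the same length. A GC box was found in 47.1%, beside 45%, and CCAAT in 50% beside 34.6%. A TATA box was found in 5.88%, beside 11.5%, and the p53 half-site in none, beside 6.63%. The median GC content was 55.2%, beside 58.7% of all promoters. With 34 promoters each gene is a few percentage points, no difference was tested, and a match of letters is a description and not evidence of binding.

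In MCF-10A, 9 LINC RNAs had higher means after the transit, which rested first on constriction replicate 1. That library held 209 to 558 reads of each of the 9, and each had fewer in constriction replicate 2, where the most was 196. None was called higher in edgeR, where 3 (4.05%) had an unadjusted p under 0.05, beside 2.72% of the table, whereas DESeq2 called 4 (5.41%), beside 1.75%. Both constriction libraries lay above both controls for 4 of the 74 (5.41%), beside 2.28% of the table. No read in either control was found for 3 of the 74 (4.05%), beside 0.858%. Without constriction replicate 1, these 4 were the members left with a higher level after transit, and the number of lower genes changed from 65 to 67.

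LINC02323 (ENSG00000259230, chr14:102545254-102555826, plus strand) was the most read of these in constriction replicate 2. It counted 539 and 196 reads after transit against 27 and 109 in the controls, or 650 and 203 against 26.4 and 86.1 normalised counts. The log2 fold change was 2.90 with a standard error of 1.18, and the adjusted p in edgeR was 1. LINC00899 (ENSG00000231711, chr22:46039907-46044853, minus strand) counted 543 and 105 reads after transit against 14 and 69 in the controls, a log2 fold change of 3.45 with a standard error of 1.61. In both genes constriction replicate 2 was the nearer of the 2 to the controls. LINC01521 (ENSG00000213888, chr22:31346777-31348719, plus strand), which starts 545 bases from the zinc finger gene PATZ1 on the opposite strand, had 380 and 76 reads against 43 and 55, a log2 fold change of 2.62 with a standard error of 1.26. LINC01011 (ENSG00000244041, chr6:2987967-2991173, plus strand) had 543 and 28 reads against 13 and 12, a log2 fold change of 4.82 with a standard error of 2.23. It starts 20 bases from NQO2, a quinone reductase gene on the same strand, shares 20.7% of its exonic bases with NQO2 and another gene, and was the one of the 4 that DESeq2 called, at an adjusted p of 0.0492, the lowest over the alternatives, against 0.525 in edgeR and at most 1.

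The other 5 were read in constriction replicate 1 and had no read in constriction replicate 2. LINC01837 (ENSG00000267489, chr19:31859103-32072082, minus strand) had 558 reads there and 0 in the other 3 libraries. LINC01426 had 290 reads and LINC00550 209 reads in the same library, also with 0 in the other 3. Against 3 reads in each control library the group means were at least 127-fold, 65.9-fold and 47.5-fold higher, values that rest on 1 library and had an adjusted p of 0.0509, 0.0642 and 0.0576 in edgeR. DESeq2 called all 3, at an adjusted p of 4.46e-07, 3.07e-07 and 0.0334, and over the alternatives it reached 1 for each. LINC01135 had 317 reads there and 4 and 3 in the controls, with a start 801 bases from that of JUN, which encodes an AP-1 subunit, on the opposite strand. LINC02102 had 310 reads there and 5 and 1 in the controls. For these last 2 the direction turned without constriction replicate 1, and their standard errors of 4.30 and 4.36 on the log2 scale were nearly as large as their log2 fold changes of 5.53 and 5.61.

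**Figure D2:**
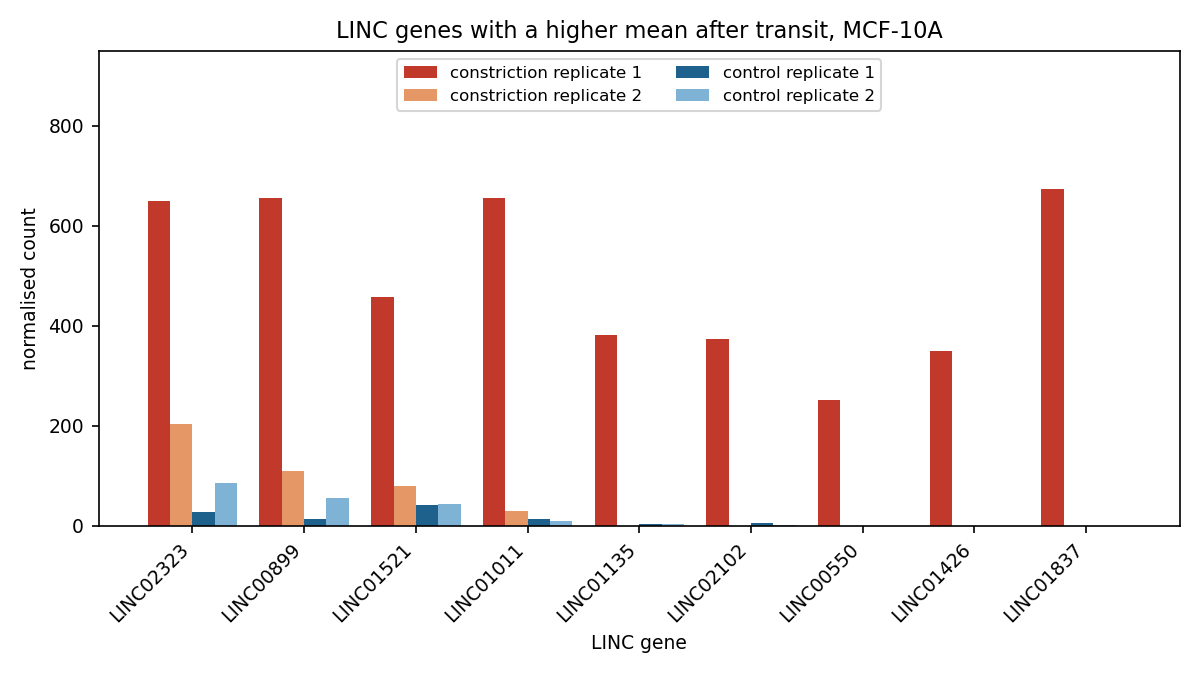
Normalised counts of the 9 LINC genes whose constriction mean exceeded the control mean in MCF-10A, with 1 bar per library. Constriction replicate 1 is the tallest bar for all 9; constriction replicate 2 exceeds both controls for the 4 genes on the left and is 0 for the 5 on the right.

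Promoters of 3 of these genes are printed to set a gene read in both constriction libraries beside one read in a single library. LINC02323 (chr14:102545004-102545303, plus strand) and LINC01521 (chr22:31346509-31346808, plus strand) were read in both, and LINC01837 (chr19:32072031-32072330, minus strand) in 1. The capitals mark the same motifs. LINC02323 holds GC boxes and the one p53 half-site among the 7 promoters of higher genes, LINC01521 a TATA box, a GC box and CCAAT, and LINC01837 only CCAAT. Of the 7, 71.4% held a GC box and none an AP-1 match.
LINC02323: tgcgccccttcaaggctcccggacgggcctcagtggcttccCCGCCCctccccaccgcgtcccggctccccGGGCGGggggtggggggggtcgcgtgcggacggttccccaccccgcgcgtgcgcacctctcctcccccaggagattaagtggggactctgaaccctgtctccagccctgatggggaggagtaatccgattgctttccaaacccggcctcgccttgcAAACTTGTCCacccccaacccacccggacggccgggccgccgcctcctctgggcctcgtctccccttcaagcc
LINC01521: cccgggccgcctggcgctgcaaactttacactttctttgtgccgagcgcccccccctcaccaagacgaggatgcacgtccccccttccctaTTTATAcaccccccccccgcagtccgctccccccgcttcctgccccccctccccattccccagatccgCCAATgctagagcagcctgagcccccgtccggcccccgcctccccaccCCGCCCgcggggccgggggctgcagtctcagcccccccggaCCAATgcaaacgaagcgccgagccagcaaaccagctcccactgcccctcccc
LINC01837: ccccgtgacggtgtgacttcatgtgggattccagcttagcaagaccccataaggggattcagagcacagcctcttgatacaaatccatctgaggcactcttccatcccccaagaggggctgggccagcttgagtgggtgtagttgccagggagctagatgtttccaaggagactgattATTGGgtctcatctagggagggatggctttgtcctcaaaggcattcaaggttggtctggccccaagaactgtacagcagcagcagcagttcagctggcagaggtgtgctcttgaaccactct

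LINC-PINT (ENSG00000226380, chr7:130876809-130913310, minus strand) was the only LINC gene in more than 1 table, and its values went in opposite directions in the 2 lines. LINC-PINT is a transcript induced by p53 and described as a tumour suppressor that binds a Polycomb complex. In MCF-10A it had 12 and 19 reads in the controls and 0 in both constriction libraries, so that it was at least 3.98-fold lower, with an adjusted p of 0.00469 in edgeR and 0.00408 with the replicate block (0.000653 to 0.321 over the alternatives). In MDA-MB-231 it counted 339 and 205 reads after transit against 96 and 172 in the controls, or 331 and 189 against 122 and 148 normalised counts. The groups did not overlap in either line on this scale, but with TMM factors the MDA-MB-231 levels were 284 and 168 after transit against 137 and 176 in the controls, which overlap. The log2 fold change in MDA-MB-231 was 0.94 with a standard error of 0.43, which did not pass the test across all genes, at an adjusted p of 1 in edgeR and 0.347 with the replicate block (0.0368 to 1 over the alternatives). The difference between the lines was not tested, because their tables were normalised separately. Control cells of MDA-MB-231 had 0.390 and 0.485 FPKM and those of MCF-10A 0.0502 and 0.0618 FPKM. In LM2 the gene was not listed, so that its level there is not known here. LINC-PINT is 1 of 74 LINC genes of MCF-10A and 1 of 3 of MDA-MB-231, and a second gene model of the same name was in none of the tables.

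LINC-PINT overlaps the miR-29 locus, and the mature sequences of that locus are shown because poly(A) libraries cannot tell the long RNA from the precursor transcript of these miRNAs. The sequence of miR-29b-3p (chr7:130877467-130877489, minus strand, RefSeq GRCh38.p14) lies inside an exon of LINC-PINT, and miR-29a-3p (chr7:130876748-130876769, minus strand) begins 40 bases beyond the 3′ end of the gene model. Capitals mark the seed, bases 2 to 8, which is the same in both. The mature miRNAs were not measured.
miR-29b-3p: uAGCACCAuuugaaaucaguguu
miR-29a-3p: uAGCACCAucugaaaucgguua
The promoter of LINC-PINT (chr7:130913261-130913560, minus strand) holds a GC box, CCAAT and AP-1 matches, in capitals, and no p53 half-site match in this window, which says nothing about p53 itself.
LINC-PINT: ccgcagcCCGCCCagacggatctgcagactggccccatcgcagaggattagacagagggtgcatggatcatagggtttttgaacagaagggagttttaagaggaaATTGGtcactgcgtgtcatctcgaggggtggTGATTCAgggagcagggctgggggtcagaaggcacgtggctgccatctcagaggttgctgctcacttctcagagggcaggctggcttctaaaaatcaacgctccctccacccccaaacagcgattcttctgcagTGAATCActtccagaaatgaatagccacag

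MDA-MB-231 had only 2 further LINC genes in its table, both with few reads. LINC01600 (ENSG00000164385, chr6:2621913-2634603, minus strand) had 8 and 6 control reads and 0 after transit, at least 2.68-fold lower. LINC02137 (ENSG00000260186, chr16:58421326-58462470, plus strand) counted 40 and 1 reads after transit against 0 and 2 in the controls, so that the groups overlapped. Over the pooled libraries its depth-adjusted ratio of constriction to control reads was 19, with an exact 95% interval of 4.93 to 162 that covers counting error only and does not cover the difference between the 2 constriction libraries. Of the 3 LINC genes, 2 were higher (66.7%, as in the table at 66.7%) and 1 was lower (33.3%, as in the table at 33.3%). Groups did not overlap for 1 higher gene, beside 61.9% of the table, and for 1 lower gene, beside 32.5%. No read after transit was found for 1 of 3, beside 7.35% of the table. None of the 3 was called in edgeR, beside 0.262% of the table called higher and 0% called lower, while all 3 had an unadjusted p under 0.05, as did 94% of the table, and DESeq2 called none, beside 8.66% of the table.

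In LM2 both listed LINC genes were read in control cells and not after transit. LINC00539 (ENSG00000224429, chr13:21303515-21348721, minus strand) had 12 and 8 control reads, with a bound of 2.95-fold lower. LINC01847 (ENSG00000253311, chr5:159698586-159937766, minus strand), annotated as antisense to the adrenergic receptor gene ADRA1B, had 16 and 3 control reads with a bound of 2.71-fold, which rests on control 1, since control 2 alone leaves no bound. Among all genes of the LM2 table, 46.4% were lower, 40.2% were lower without overlap between groups and 21.6% had no read after transit. Neither was called in edgeR (0% of the table called lower) or DESeq2, at an unadjusted p of 0.0198 and 0.034 in edgeR. With the replicate block both passed, beside 16.5% of the table called lower by that fit, at an adjusted p of 0.00856 and 0.0123 in edgeR, the lowest over the alternatives, which reached 1 for both. These calls rest on replicate numbers that the title and the description of 1 LM2 constriction sample give differently, and no other pairing was run. Control levels of 8.56 to 9.32 normalised counts leave little room below them at this depth.

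**Figure D3:**
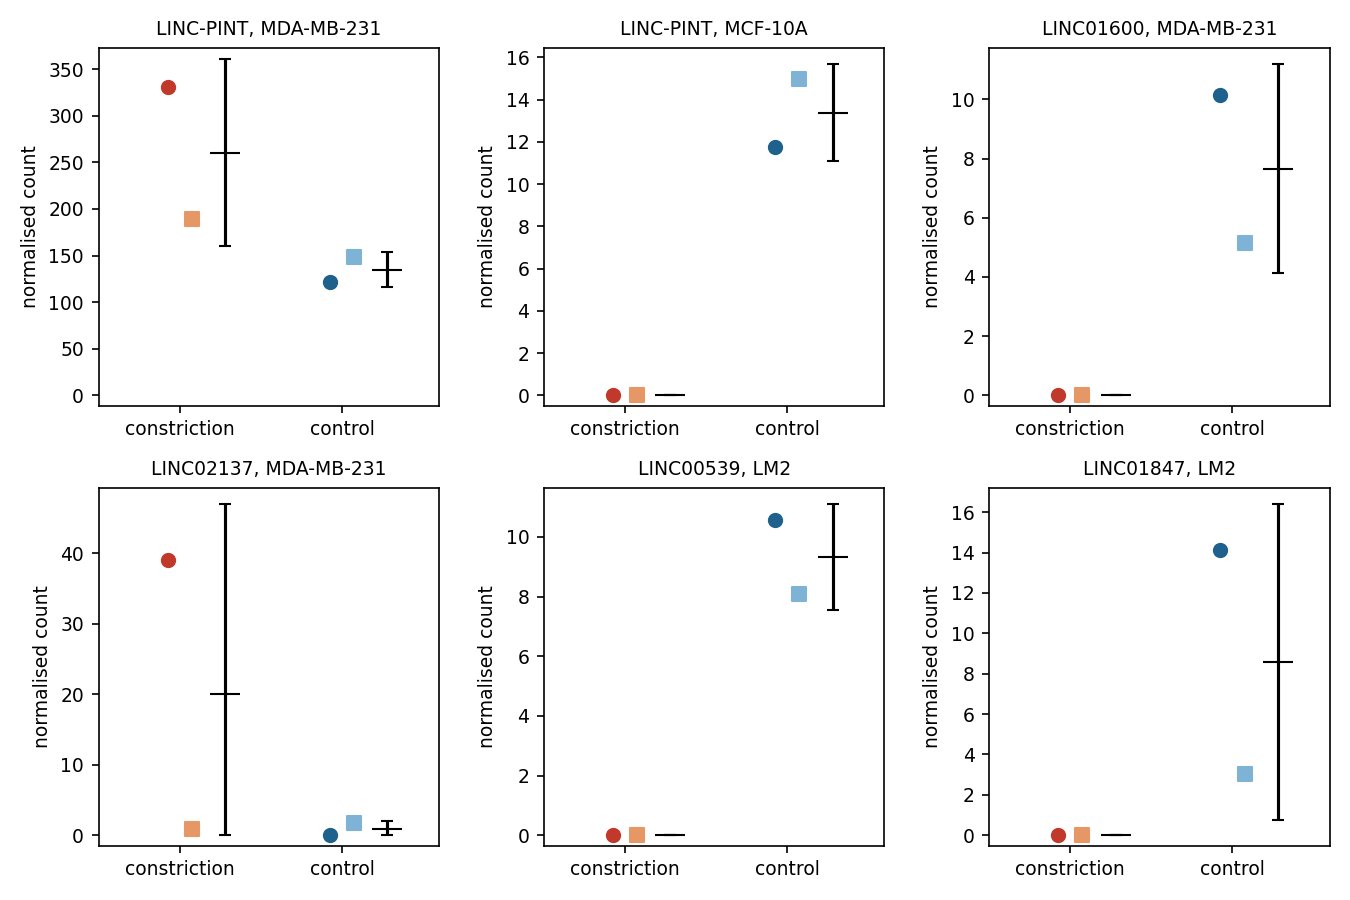
Normalised counts of LINC-PINT in MDA-MB-231 and MCF-10A and of the 4 other LINC genes listed outside MCF-10A; circles are replicate 1 and squares replicate 2 of constriction (red, orange) and control (dark and light blue), and black bars give the mean ± SD (n = 2, lower end cut at 0). LINC-PINT is higher after transit in MDA-MB-231, 331 and 189 against 122 and 148, and at 0 after transit in MCF-10A.

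The annotation of the LINC genes in the MCF-10A table was set beside that of LINC genes in general, with no test. All 79 rows had the coordinates and exonic lengths of GENCODE release 29, which holds 1891 genes named by the same rule, and 3.91% of these were in the MCF-10A table. Of the 74, 54 were annotated as lincRNA (73.0%), beside 90.7% of the 1891, 13 as antisense, 5 as processed transcript, 1 as a transcribed pseudogene and 1 as protein-coding (LINC00672, singled out for this label). Their median exonic length was 2557.5 bases, beside 1253 for the 1891 and 2348 for all genes of the table, and ran from 375 to 14336. They lay on 21 chromosomes, most often on chromosome 1 with 9 genes (12.2%, beside 8.99% of the 1891), then on chromosomes 6 and 14 with 7 each (9.46%, beside 3.86% and 4.97%).

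Many of the 74 lay against or across other genes. Another gene overlapped 39 of them, a protein-coding gene overlapped 13, and 29 shared exonic bases with another gene. Whether the counting used the strand is not given in the sources used here, so reads of such a LINC gene and of its partner cannot be told apart with certainty. The start of 15 lay within 1 kb of the start of a protein-coding gene, for 10 of them on the opposite strand. Another gene of the MCF-10A table lay within 100 kb of 31, and within 10 kb of 13. Among the 28 lower genes with such a neighbour, the nearest one was also lower for 24, in a table where 94.5% of genes were lower. Among the 3 higher genes with such a neighbour, the nearest was higher for none.

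**Figure D4:**
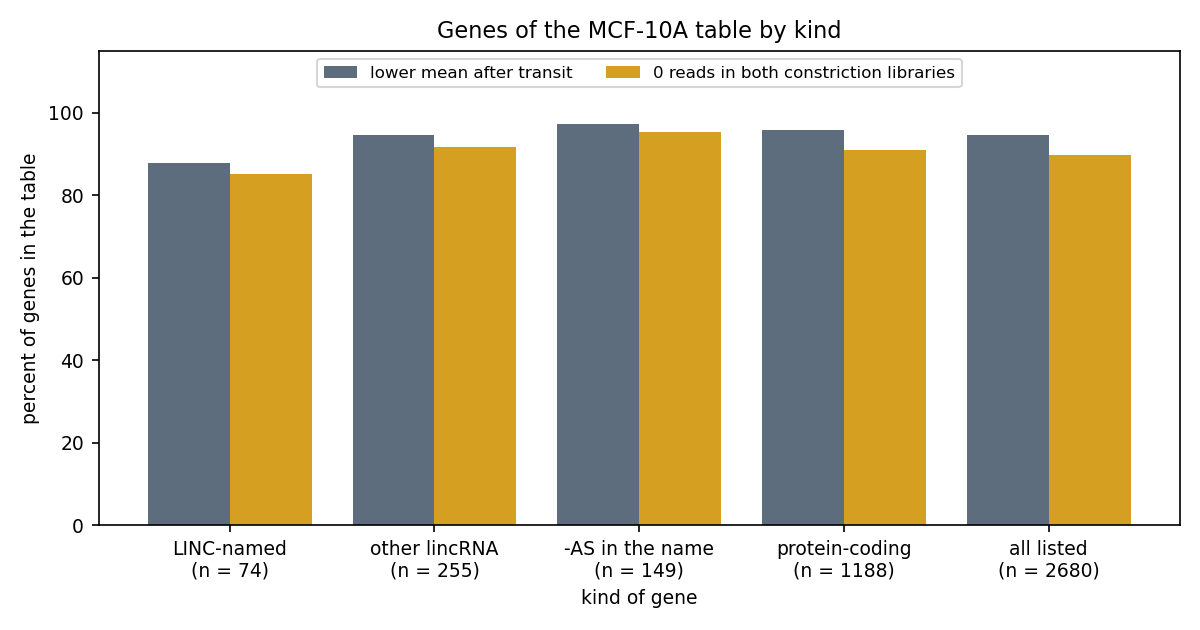
Percent of the genes of each kind in the MCF-10A table with a lower mean after transit (grey) and with 0 reads in both constriction libraries (yellow). The LINC genes, at 87.8% and 85.1%, have the shortest bars, and no kind is lower than 85.1% on either measure.

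The LINC RNAs were set beside other kinds of gene in the MCF-10A table, and no difference between kinds was tested. LINC genes were lower in 87.8% of 74 cases, and 5 of the 9 higher ones had no read in constriction replicate 2. Other genes annotated as lincRNA were lower in 94.5% of 255 cases and had no read after transit in 91.8%. Genes with -AS in their name were lower in 97.3% of 149 cases, and protein-coding genes in 95.9% of 1188. Median control levels were 17.1 normalised counts for LINC genes, 14.5 for other lincRNA genes, 16.3 for -AS genes and 20.4 for protein-coding genes. LINC RNAs had 3689 reads in constriction replicate 1, all from 9 genes, and 411 in constriction replicate 2, against 1925 and 1753 in the controls.

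A few well-studied long noncoding RNAs outside the LINC names were listed as well. Of 51 on a list, 3 were in the MCF-10A table (5.88%), 3 in that of MDA-MB-231 (5.88%) and 1 in that of LM2 (1.96%). Of all genes that the study adjusted over, the tables held 13.9%, 1.59% and 0.321%. In MCF-10A, DLEU2, the host gene of miR-15a and miR-16-1, had 47 and 127 reads in the controls and 0 after transit, and the p53-linked PICART1 had 59 and 52 and 0. TERC, the telomerase RNA, had 238 reads in constriction replicate 1, 0 in replicate 2 and 1 and 0 in the controls, like the 5 LINC genes with no read in constriction replicate 2. In MDA-MB-231, MALAT1, a nuclear speckle RNA, counted 11675 and 14876 reads after transit against 3254 and 5533 in the controls, KCNQ1OT1 had 425 and 342 against 144 and 184, and NEAT1, the paraspeckle RNA, had 13768 and 12135 against 12689 and 23369. In LM2, MIR22HG counted 742 and 749 reads after transit against 1677 and 1290 in the controls. None of 34 factors for the transcription, cleavage and decay of noncoding RNA was in any of the 3 tables.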

How the data were processed

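RNA of 2 constriction and 2 control cultures of MCF-10A, MDA-MB-231 and LM2 was analysed from 3 tables, 1 per cell line. Per the submitters' processing notes, reads were cleaned with fastp, aligned to GRCh38 with HISAT2 2.0.5, counted per gene with featureCounts 1.5.0-p3 and compared with DESeq2 1.20.0. The authors deposited raw read counts per gene, which were the input of the tests. The authors also deposited normalised counts (counts divided by size factors, a signal that is comparable within a table only) and FPKM values, which were used to compare levels per length. From the p-value and adjusted p-value columns deposited by the authors only the listing threshold and the number of genes adjusted over (19236, 23976 and 30209) were read. The authors' fold changes and their files of enriched gene ontology terms hold the study's own findings and were not used. Genes outside the tables are not analysed here.

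The rule for the members was applied by script. The members, gene lists and tests were chosen with earlier results of these data known. Named genes were every member of the MDA-MB-231 and LM2 tables, the 12 members with the highest mean control level in MCF-10A, every member higher or read in both constriction libraries there, members of more than 1 table, members on a list of published roles, and those with the widest and narrowest ratio between the MCF-10A controls. Others are marked where named. Counts were tested per line with edgeR 4.0.16 (quasi-likelihood test, two-sided, size factors of the deposited normalised counts, all listed genes, Benjamini-Hochberg over the number of genes the study adjusted over, with unlisted genes at a p of 1) and called under 0.05. Fold changes are differences of log2(mean normalised count + 1) with the standard error from the spread of both groups. Against libraries at 0 a bound set each of them to 3 reads. The edgeR step was tested on simulated data. Alternatives used limma 3.58.1, DESeq2 1.42.0, TMM factors, pseudocounts of 0.5 and 10, a minimum mean of 10, other adjustments, and each library left out. The study's list of experiments gives control and constriction together under each replicate number, so that a replicate block was fitted as well; deviations of same-numbered libraries from their group means correlated by -0.0427, 0.0827 and -0.0317 over the listed genes of MCF-10A, MDA-MB-231 and LM2, and by -0.11, 0.159 and 0.048 over those with a mean of at least 10. For LM2 the title and the description of 1 constriction sample give different replicate numbers, and the title was used. The replicates are described as repeated experiments with each line, so that p-values measure the spread between 2 such repeats. Counting intervals and floors cover counting error only. Annotation was from GENCODE release 29 and promoter and miRNA sequences from RefSeq (GRCh38.p14).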

Additional observations from a re-analysis of the deposited data

Results flagged for a closer look

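LINC-PINT stood out because, on the deposited normalised counts, all of its libraries moved one way in MCF-10A and the other way in MDA-MB-231. With TMM factors its groups overlapped in MDA-MB-231 (284 and 168 against 137 and 176), with a log2 fold change of 0.53. Its log2 difference, constriction against control, was at most -1.99 in MCF-10A, a bound with both constriction libraries set to 3 reads, and 0.94 in MDA-MB-231. The difference between the lines was not tested, because their tables were normalised separately and hold only genes already listed for this comparison in each line.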

How the results depend on the processing

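In MCF-10A the number of LINC genes called (64) was 62 to 68 with TMM factors, DESeq2 (4 of them higher) or adjustment over the table alone (3 higher). It was 35 by limma with a pseudocount of 1, 41 with 0.5 and 0 with 10 (46 at an unadjusted p under 0.05), 30 with edgeR's newer dispersion estimate and 24 of the 34 genes with a mean of at least 10. With 1 library left out it ran from 0 (without constriction replicate 1 or control replicate 2) to 9. The 3 calls without constriction replicate 2 were higher genes, and none of the 64 remained there. The minimum mean of 10 also left 25 lower genes, 29 with groups apart and 23 without a read after transit, since fewer genes entered. With the replicate block the calls were 52 for MCF-10A, 0 for MDA-MB-231 and 2 for LM2, against 64, 0 and 0 without it; with the MCF-10A numbers crossed, an alternative chosen after seeing the data, it called 0 there (61 unadjusted). In MDA-MB-231 adjustment over the table alone called 3. There the minimum mean of 10 left 0 lower genes, 1 with groups apart and 0 without a read, and TMM factors left 1 with groups apart, LINC01600. No gene was then left in more than 1 table (0), and in LM2 that minimum left no member to fit. The other counts, lower genes included, stayed within 1.5 times the reported value under the alternatives run for them.

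Of 237 tested values of the named genes under alternatives, 151 kept direction and side of the threshold, 74 lost the call, 10 gained it and 2 reversed. A further 33 had no test, 30 of them with a pseudocount of 10 and 3 (LINC01837, LINC01426 and LINC00550 without constriction replicate 1) with a log2 fold change of 0, and 22 of the 33 moved by more than their standard error. Without constriction replicate 1 the log2 fold changes became -2.05 for LINC01135 and -1.94 for LINC02102; over the libraries left out they ran up to 6.53 and 6.71. With 2 libraries per group and at most 36 reads in each control for 40 of the 65 lower genes of MCF-10A, depth bounds how large their differences can be shown to be; causes of the other shifts were not tested.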
